A study of Capra hircus with 6 samples.

Results

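YTHDF3, FXR1 and PABPC1 encode 3 proteins that bind mRNA in the cytoplasm, and their transcripts were followed in goat embryos injected with siRNA against YBX1, itself a major protein of cytoplasmic mRNA particles. YTHDF3 is a reader of N6-methyladenosine (m6A), a methyl mark on mRNA, and works beside its relatives in translation and decay of marked mRNA. FXR1 is a member of the fragile X family (FMR1, FXR1 and FXR2), RNA-binding proteins that control translation and take part in RNA granules. PABPC1 is a cytoplasmic poly(A)-binding protein, which coats the poly(A) tail, joins it to the translation initiation machinery and acts with the deadenylases that shorten the tail. In early embryos, where stored maternal mRNA is translated and then removed while the zygotic genome becomes active, such binders act on much of the mRNA pool.

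The genes were chosen by symbol, through the pairing of Ensembl identifiers with symbols in the study's table of skipped exons, and all 3 had a row among the 5154 genes of the deposited table. YTHDF3 is ENSCHIG00000026460, FXR1 is ENSCHIG00000017202 and PABPC1 is ENSCHIG00000023714, on the goat assembly ARS1. That table holds only genes which the authors' own comparison of the same libraries had called differentially expressed, these 3 included. A test of knockdown against control on its rows is therefore not independent of how the rows were selected. An adjusted p over these rows does not control false discoveries among all expressed genes.

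Goat zygotes from in vitro fertilization received 20 µM siRNA targeting YBX1, or a universal negative control siRNA, by microinjection, and both groups were cultured and collected as 8-cell embryos 72 h later. Each group had 3 libraries of pooled, directly lysed whole embryos. The methods give 30 embryos of each kind in 3 replicates, which does not settle how many entered each library or whether the libraries came from separate culture runs, so p-values measure the spread between these libraries, which may be technical. A siRNA lowers its target without deleting it, and YBX1 was not among the rows with a symbol, so the depletion that would check the group labels was not analysed here.

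Smart-seq2 was used for the libraries, a method that amplifies full-length cDNA from small amounts of polyadenylated RNA. The values are FPKM, fragments divided by gene length and by the total of the library. The fragments behind them could be recovered as whole numbers, and the totals were 10354990, 12192458 and 11052666 in controls 1, 2 and 3 and 12098896, 11203666 and 12688297 in knockdown libraries 1, 2 and 3. FPKM is a share of the library: in pooled embryos, fewer cells that carry a transcript and less of it per cell cannot be told apart, and the amount of RNA per embryo is not in the values.

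Control 3 stood apart from the other controls. Over the 4500 genes whose mean FPKM was 1 or more, its Euclidean distance on the log2(FPKM + 1) scale was 64.5 to control 1 and 71.9 to control 2, which lay 52.3 from each other. Control 3 was also the control nearest to each knockdown library, at 143.0, 116.3 and 124.9 from knockdown 1, 2 and 3. The same distances were 162.1, 137.9 and 148.5 for control 1 and 177.3, 153.8 and 164.2 for control 2. Genes could be looked up only by symbol, and 8.8% of the rows had one, so that a gene without a symbol may still have a row. Of 8 oocyte and early embryo markers, 4 could be found (H1-8, FOXR1, LHX8 and PATL2). Their summed FPKM was 302.5, 231 and 718.5 in controls 1, 2 and 3 and 1105, 1534 and 1004 in the knockdown libraries. The most abundant of them, the oocyte linker histone H1-8, had 252, 194 and 680.5 FPKM in the controls and 963, 1393 and 859 FPKM after knockdown, and it made up most of the sum. The other markers differed in where control 3 stood. FOXR1, with 23.7, 22.1 and 17.1 FPKM in controls 1, 2 and 3, was lowest there, LHX8 (23.8, 12.3 and 16.8 FPKM) lay between, and PATL2 (2.93, 2.78 and 4.19 FPKM) was highest there. After knockdown FOXR1 had 63.6, 86.0 and 51.4 FPKM, LHX8 52.6, 28.6 and 69.1 FPKM and PATL2 between 23.8 and 26.1 FPKM. All 4 markers found were thus higher in every knockdown library than in every control. Calls and separation of the groups were common in this table of called genes. Of the 4500 genes tested, 34.1% were called higher, and 57.8% had the opposite separation, every knockdown library below every control. The share with every knockdown library above every control was not computed. Of 8 cumulus cell markers TNFAIP6 alone could be found, with 20.5 FPKM in control 3 and between 1.73 and 2.38 FPKM in the other 5 libraries, and none of 3 sperm markers could be found. None of these 5 genes was at 0 in any library, the markers that could not be found were not analysed here, and the part of these differences in the results below was not tested. The fold changes of the 3 binders and the differences between them are therefore given with and without control 3.

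YTHDF3 was lower after knockdown in every library and passed the test in the values as deposited. Its level was 46.0, 97.9 and 64.8 FPKM in controls 1, 2 and 3 and 14.8, 13.4 and 23.6 FPKM in knockdown libraries 1, 2 and 3. All knockdown libraries lay below all controls, and the lowest control was still 1.95 times the highest knockdown library. The mean was 69.6 ± 26.3 FPKM (SD, n = 3) in the controls and 17.3 ± 5.50 FPKM (SD, n = 3) after knockdown, a 4.03-fold lower level. On the log2(FPKM + 1) scale the difference was -1.92 (standard error 0.43, 95% interval -2.86 to -0.99, adjusted p = 0.00219, limma with Benjamini-Hochberg adjustment over 4500 genes). Without control 3 it was -1.94 (adjusted p = 0.00452, limma). A gene was called lower if its log2 fold change was below -1 with an adjusted p under 0.05, which held for 2530 of the 4500 genes tested, or 56.2%. By adjusted p alone, with any fall, 58.8% were lower, YTHDF3 among them but not FXR1 or PABPC1. With a background this high, the call does not set YTHDF3 apart in this table, and 28.8% of the genes tested had a larger fall.

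PABPC1 was lower on average after knockdown, but its groups overlapped. Its level was 153, 104 and 54.7 FPKM in controls 1, 2 and 3 and 53.5, 43.6 and 56.4 FPKM in knockdown libraries 1, 2 and 3. Controls 1 and 2 were above every knockdown library, whereas control 3 lay within the narrow range of the knockdown libraries, above knockdown 1 and 2 and below knockdown 3. The mean was 104 ± 49.3 FPKM (SD, n = 3) in the controls and 51.2 ± 6.67 FPKM (SD, n = 3) after knockdown, and the spread relative to the mean was 47.4% and 13.0%. The log2 difference was -0.90 (standard error 0.44, 95% interval -1.86 to 0.07, adjusted p = 0.0683, limma), which did not pass. Without control 3, the lowest control of PABPC1, it was -1.30 (adjusted p = 0.0101, limma) and passed both thresholds, as did 57.4% of the genes tested in that fit. Leaving out the lowest control makes a fall larger by construction. Close relatives of PABPC1 exist in mammalian genomes, and fragments that matched several places were not counted by the authors, so its level is less certain than that of a gene without copies.

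FXR1 was the most abundant of the 3 per length, and its groups overlapped as well. It stood at 218, 274 and 121 FPKM in controls 1, 2 and 3 and at 128, 139.9 and 87.6 FPKM in knockdown libraries 1, 2 and 3. Control 3 was below knockdown 1 and 2, and knockdown 3 alone lay below every control. The mean was 204 ± 77.6 FPKM (SD, n = 3) in the controls against 118.5 ± 27.4 FPKM (SD, n = 3) after knockdown, and the log2 difference was -0.73 (standard error 0.43, 95% interval -1.67 to 0.21, adjusted p = 0.118, limma). The interval holds 0 as well as a fall of the size that counts as changed, so that neither an unchanged nor a lower FXR1 can be read from this fit. The authors' own comparison of the same libraries had called FXR1, as it had PABPC1, and the present fit called neither. Without control 3, the lowest control of FXR1, the log2 difference was -1.07 (adjusted p = 0.0246, limma) and passed both thresholds. So did 57.4% of the genes tested in that fit. Leaving out the lowest control makes a fall larger by construction. The table of genes tested held a larger fall than that of FXR1 in 64.4% of its rows and a larger fall than that of PABPC1 in 60.4%.

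**Figure D1:**
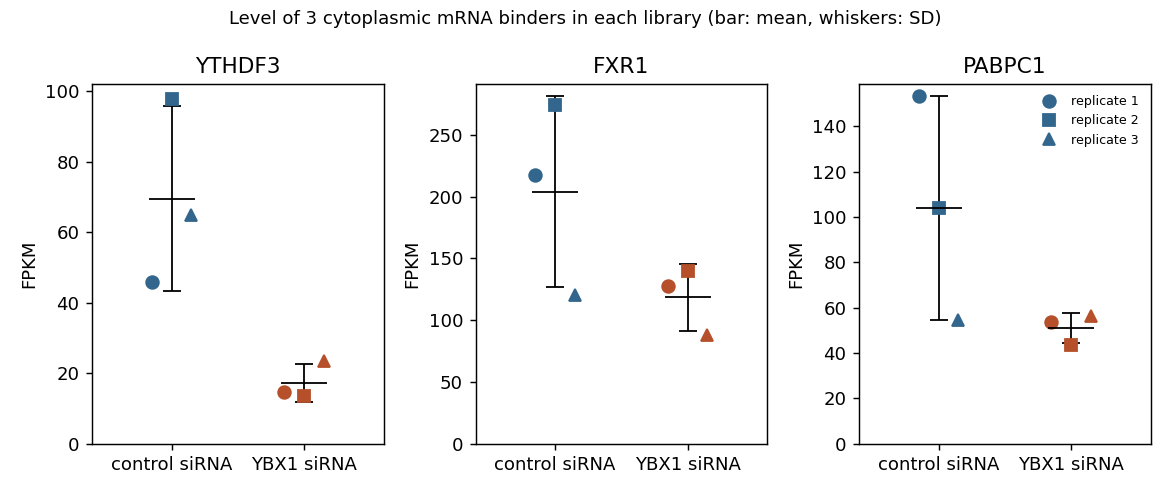
Level of YTHDF3, FXR1 and PABPC1 in FPKM (linear axes from 0, a separate scale for each gene) in the 3 control and 3 YBX1 knockdown libraries. Symbols mark the replicate number, horizontal bars the mean and whiskers the SD (n = 3). The groups are apart for YTHDF3, while control replicate 3 (120.7 FPKM for FXR1 and 54.7 FPKM for PABPC1) lies among the knockdown libraries for the other genes.

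The exact permutation test, two-sided, gave p = 0.1 for YTHDF3, the smallest p that 3 libraries against 3 allow, p = 0.2 for PABPC1 and p = 0.3 for FXR1. Every knockdown library was below every control in 57.8% of the genes tested, so that separation of the groups, too, was common in this table.

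The fragments behind these values show the counting error only, and the number of molecules sampled is not in the values. YTHDF3, a gene of 4745 bases by its recovered length, had 2260, 5664 and 3399 fragments in the controls and 847, 715 and 1418 after knockdown. FXR1 (2935 bases) had between 3263 fragments in knockdown 3 and 9814 in control 2, and PABPC1 (3407 bases) between 1666 in knockdown 2 and 5408 in control 1. The exact 95% Poisson interval, relative to the value, was widest for YTHDF3 in knockdown 2, at 12.5 to 14.5 FPKM, and narrowest for FXR1 in control 2, at 269 to 280 FPKM. Counting error alone is in these intervals, because PCR copies of a molecule are counted as if independent. They are far narrower than the distances between replicates, such as 46.0 and 97.9 FPKM of YTHDF3 in controls 1 and 2. Only a few neighbouring values could not be told apart by counting, among them PABPC1 in control 3 (52.4 to 57.1 FPKM) and in knockdown libraries 1 (51.3 to 55.8 FPKM) and 3 (54.1 to 58.6 FPKM).

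Within each library FXR1 was above PABPC1 per length, between 1.42 times in control 1 and 3.21 times in knockdown 2. PABPC1 was above YTHDF3 in 5 of 6 libraries. In knockdown libraries 1, 2 and 3 it was 3.63, 3.25 and 2.39 times as high as YTHDF3, in controls 1 and 2 it was 3.33 and 1.06 times as high, and in control 3 the order turned, with PABPC1 at 0.844 times YTHDF3. The levels of PABPC1 and YTHDF3 were thus close in controls 2 and 3 and well apart in control 1 and all knockdown libraries.

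Such ratios within a library hardly depend on how libraries are scaled to each other, and they were used to compare the members with one another. On the log2(FPKM + 1) scale, YTHDF3 minus FXR1 was -2.22, -1.48 and -0.89 in controls 1, 2 and 3 and -3.03, -3.29 and -1.85 in knockdown libraries 1, 2 and 3. The mean change after knockdown was -1.20 (standard error 0.59), but control 1 lay below knockdown 3. YTHDF3 minus PABPC1 was -1.72, -0.09 and 0.24 in the controls and -1.79, -1.63 and -1.22 after knockdown, a change of -1.03 (standard error 0.63), and control 1 again lay among the knockdown libraries. FXR1 minus PABPC1 was 0.50, 1.39 and 1.13 in the controls and 1.24, 1.66 and 0.63 after knockdown, a change of 0.17 (standard error 0.40). In each of the 3 pairs the groups overlapped, and with 3 libraries against 3 the test cannot reach a p under 0.05. The exact permutation test, two-sided, gave p = 0.3 for YTHDF3 against PABPC1, p = 0.2 for YTHDF3 against FXR1 and p = 0.7 for FXR1 against PABPC1 (0.45, 0.45 and 0.7 adjusted over the 3 pairs, with 0.1 the smallest raw p possible). Without control 3 the changes were -0.65 for YTHDF3 minus PABPC1, -0.88 for YTHDF3 minus FXR1 and 0.23 for FXR1 minus PABPC1. Without control 1 the change was -1.62 for YTHDF3 minus PABPC1 and -1.54 for YTHDF3 minus FXR1, and without knockdown 3 it was -1.63 for YTHDF3 minus FXR1. In these cases all remaining controls lay above all remaining knockdown libraries (p = 0.2 in the exact two-sided test by permutation, as low as 2 libraries against 3 can give). That YTHDF3 passed the test and FXR1 and PABPC1 did not does not show that their responses differed, and these libraries are too few to show that they were alike.

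The scaling between libraries moved all 3 genes. Summed over its rows, the table took a larger part of the controls than of the knockdown libraries, and with scalings computed from these rows the median gene tested went from a log2 fold change of -1.24 to -0.67 with an equal FPKM sum in each library, to -0.51 with quantile normalization and to -0.44 with the median of ratios. YTHDF3 had -1.24 with an equal FPKM sum (adjusted p = 0.0176, limma), -1.43 with quantile normalization (adjusted p = 0.00932, limma) and -0.96 with the median of ratios (adjusted p = 0.0725, limma), where it no longer passed. Under the same 3 scalings FXR1 had -0.02, -0.09 and 0.27, and PABPC1 had -0.19, -0.39 and 0.09. The share of genes called lower was 38.1%, 31.2% and 31.5%. Relative to the median gene of the table, YTHDF3 was lower under each of these scalings and in the values as deposited, while FXR1 and PABPC1 were above that median in all of them. These scalings rest on genes that the authors had called, and the scaling over all expressed genes was not analysed here.

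**Figure D2:**
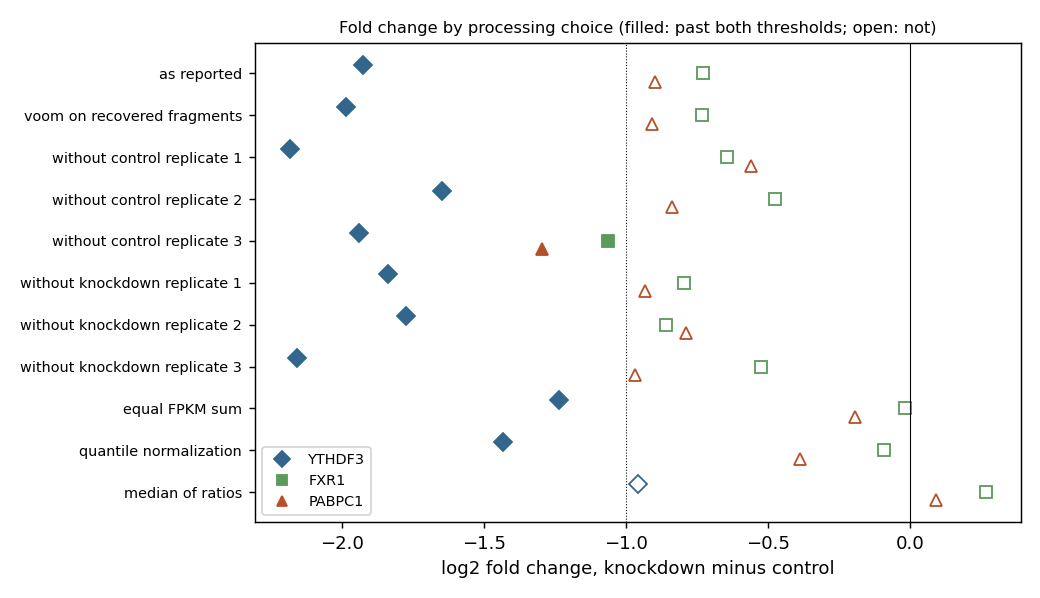
Log2 fold change (knockdown minus control) of YTHDF3, FXR1 and PABPC1 under the reported fit and 10 alternatives, with filled symbols where the adjusted p was under 0.05 and the change beyond -1. YTHDF3 is filled everywhere except with the median of ratios (-0.96), and FXR1 and PABPC1 are filled only without control replicate 3 (-1.07 and -1.30).

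The members were set beside other genes that bind mRNA in the cytoplasm, mark it with m6A or act on its poly(A) tail. Of 123 listed genes, 39 had a symbol in the pairing and 15 of these, the trio included, were in the table and passed the FPKM minimum. Of the 15, 9 were called lower and 3 higher, beside 56.2% and 34.1% of all genes tested, and the median log2 fold change was -1.16 against -1.24 over all genes tested. Among the 12 listed genes besides the trio, 8 were called lower and 3 higher. The share of lower genes on the list was thus near that of the table around it. Without control 3, 11 of the 15 were lower, the additional genes being FXR1 and PABPC1, beside 57.4% of all genes tested in that fit. With an equal FPKM sum 6 of the 15 were lower, beside 38.1% of all genes tested, and with quantile normalization 6, beside 31.2%. With the median of ratios 4 of the 15 were lower, beside 31.5% of all genes tested.

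Among 21 listed m6A genes, 4 had an identifier and 3 of these were in the table, and the reader and a writer subunit went opposite ways in the values as deposited and under each of the 3 scalings. METTL14, the RNA-binding partner of METTL3 in the m6A writer complex, rose. It had 17.1, 24.0 and 16.4 FPKM in the controls and 52.4, 44.9 and 56.0 FPKM after knockdown, with every knockdown library above every control (log2 difference 1.38, standard error 0.38, adjusted p = 0.00571, limma). With the median of ratios the log2 difference of METTL14 was 2.34, while YTHDF3 (-0.96, adjusted p = 0.0725, limma) did not pass. No other listed subunit of the writer complex could be found by symbol, so METTL14 does not stand for that complex. METTL5, which places m6A on ribosomal RNA rather than on mRNA, fell like YTHDF3, with a mean of 71.3 ± 29.5 FPKM in the controls and 16.8 ± 8.99 FPKM after knockdown (SD, n = 3 each; log2 difference -2.07, adjusted p = 0.00302, limma). No identifier was paired with YTHDF1 or YTHDF2, the relatives of YTHDF3, and they were not analysed here.

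Of 23 listed poly(A)-binding proteins and partners, 5 had an identifier and 3 of these were in the table. LARP4, which binds poly(A) RNA and PABPC1 and protects tails, had the largest fall of the 15 genes. It went from 243, 388 and 151 FPKM in the controls to 9.67, 33.1 and 22.2 FPKM after knockdown (log2 difference -3.58, standard error 0.51, adjusted p = 0.000250, limma). EIF4A2, an RNA helicase of translation initiation, had 430, 339 and 133 FPKM in the controls and 144, 111 and 112 FPKM after knockdown. As with PABPC1, control 3 was far below the other controls and below 1 knockdown library. EIF4A2 passed the thresholds (log2 difference -1.14, adjusted p = 0.0369, limma), but not without control 1, control 2, knockdown 2 or knockdown 3, where its adjusted p was 0.159, 0.109, 0.0843 and 0.0860 (limma).

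Of 23 listed enzymes that act on the tail, 8 had an identifier and 2 of these were in the table, and both fell. TENT2, a cytoplasmic poly(A) polymerase, had 260.5, 285 and 125.5 FPKM in the controls and 45.4, 42.7 and 55.9 FPKM after knockdown (log2 difference -2.12, adjusted p = 0.00132, limma). TUT7, which adds uridines to short tails, had 137, 126 and 44.9 FPKM in the controls and 20.7, 23.7 and 20.7 FPKM after knockdown (log2 difference -2.04, adjusted p = 0.00257, limma). In both genes control 3 was again the lowest control, yet it was still 2.25 times the highest knockdown library for TENT2 and 1.89 times for TUT7. With the median of ratios the log2 difference was -1.13 for TENT2 (adjusted p = 0.0266, limma) and -1.06 for TUT7 (adjusted p = 0.0469, limma), both just past the thresholds.

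Of 11 listed fragile X family genes and partners, 3 had an identifier, and FXR1 was the one among these with a row in the table. Of 19 listed RNA granule genes, 10 had an identifier and 3 of these were in the table. The decapping genes DCP2 and DCP1A were not on the list, although both had a row. They fell in the values as deposited, by a log2 difference of -2.32 (adjusted p = 0.00072, limma) and -1.72 (adjusted p = 0.00221, limma). Of all genes tested, 56.2% were called lower in that fit. DCP2 and DCP1A were not analysed here under the 3 scalings. G3BP1, a core protein of stress granules, fell from a mean of 330.1 ± 28.5 FPKM in the controls to 147 ± 17.1 FPKM (SD, n = 3 each; log2 difference -1.16, adjusted p = 0.0112, limma), and control 3, at 329.9 FPKM, was in the middle of the controls. DDX6, a helicase of P-bodies, had 18.2, 16.4 and 7.59 FPKM in the controls and 6.43, 2.86 and 3.70 FPKM after knockdown (log2 difference -1.47, adjusted p = 0.0103, limma). PATL2, an oocyte mRNA particle protein that is also among the oocyte markers, rose from a mean of 3.30 ± 0.778 FPKM in the controls to 25.3 ± 1.29 FPKM (SD, n = 3 each; log2 difference 2.63, adjusted p = 0.000266, limma). With an equal FPKM sum, the median of ratios or quantile normalization, neither G3BP1 nor DDX6 nor EIF4A2 passed, and METTL5 did not pass with the median of ratios.

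Among 26 other cytoplasmic mRNA binders listed, 9 had an identifier and 3 of these were in the table. ELAVL2, an AU-rich element binder, rose from a mean of 27.5 ± 6.09 FPKM in the controls to 89.5 ± 19.7 FPKM (SD, n = 3 each; log2 difference 1.67, adjusted p = 0.00278, limma). RC3H1, or roquin, which directs mRNA to decay, fell from 22.1, 30.1 and 8.47 FPKM to 2.32, 2.43 and 1.89 FPKM (log2 difference -2.57, adjusted p = 0.000912, limma). HNRNPD, also known as AUF1, had a log2 difference of -0.71 (adjusted p = 0.0951, limma) and did not pass, although every knockdown library was below every control. Its sign turned with an equal FPKM sum (0.0051) and the median of ratios (0.29).

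**Figure D3:**
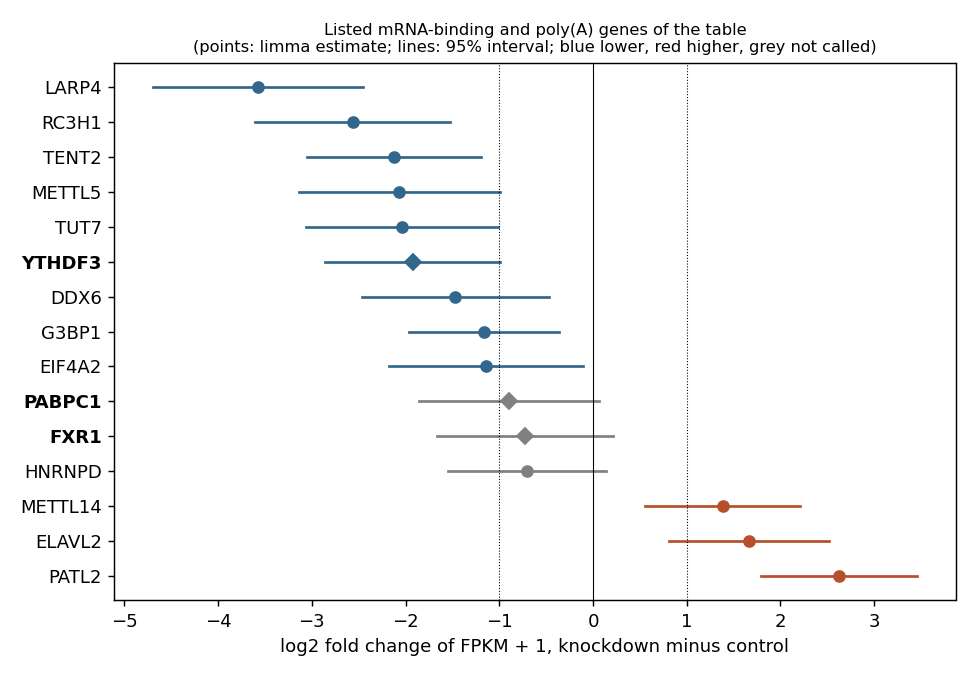
Log2 fold change of FPKM + 1 (knockdown minus control) of the 15 listed genes in the table, with 95% intervals from limma. Diamonds and bold names mark YTHDF3, FXR1 and PABPC1, dotted lines the fold thresholds. YTHDF3 (-1.92) sits among the 9 genes called lower, PABPC1 (-0.90) and FXR1 (-0.73) with HNRNPD between these and the 3 genes called higher.

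To describe the pattern over the 6 libraries, each member was compared with the 455 other genes with a symbol, by the root mean square distance between profiles of log2(FPKM + 1) centred on their means. The genes nearest to YTHDF3 were PSPC1 (0.176), DDX55 (0.185) and DNAJC10 (0.195), against a median distance of 0.738 to all genes compared. Each had its highest control in control 2 and its highest knockdown library in knockdown 3, as YTHDF3 had. PSPC1, a paraspeckle protein, had 21.7, 37.6 and 24.2 FPKM in the controls and 6.82, 6.68 and 10.5 FPKM after knockdown.

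The genes nearest to FXR1 were NPAT (0.101), HERC4 (0.15) and ANLN (0.152), with a median of 0.785 over the genes compared. NPAT, a coactivator of histone gene transcription, had 38.4, 46.3 and 23.6 FPKM in the controls and 20.1, 22.5 and 15.1 FPKM after knockdown. In NPAT, HERC4 and ANLN, as in FXR1, control 3 was the lowest control and knockdown 3 the lowest knockdown library. The genes nearest to PABPC1 were ICE2 (0.151), TAF4B (0.154) and MARCHF7 (0.155), with a median of 0.768. ICE2, a subunit of the little elongation complex, had 45.4, 32.9 and 17.6 FPKM in the controls and 15.6, 16.7 and 15.5 FPKM after knockdown, with control 1 highest and control 3 lowest among the controls as in PABPC1.

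Among the members, FXR1 and PABPC1 were the closest pair. Their distance was 0.408, below the median of either, and PABPC1 ranked 66 of 455 by nearness to FXR1 and FXR1 ranked 76 of 455 by nearness to PABPC1. YTHDF3 lay 0.811 from PABPC1 and 0.837 from FXR1, each above the medians of both genes of the pair. These distances were computed with control 3, which was the lowest control for FXR1 and PABPC1, whereas for YTHDF3 the lowest control was control 1.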

How the data were processed

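The authors trimmed paired-end reads (fastp), mapped them to goat assembly ARS1 (HISAT2), counted those with a unique match (featureCounts) and deposited FPKM values for 6 libraries. The tool that computed FPKM is not given in the sources used here. The deposited table also holds columns of the authors' DESeq2 comparison, which were used only to establish that all 5154 rows had been called.

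Fragments were recovered by finding lengths and totals under which FPKM values become whole numbers (5152 genes, 99.9968% of values within 0.01 of a whole number), and served for depth and for 1 alternative. The fit was lmFit and trended eBayes of limma 3.58.1 (R 4.3.3) to log2(FPKM + 1), over the 4500 genes whose mean FPKM was 1 or more. Fold changes are on this scale, which understates those of low genes. Calls required a log2 fold change beyond 1 or -1 with an adjusted p under 0.05. Permutation tests used scipy 1.17.1. The recovery of fragments and the limma fit were tested on simulated data. No libraries of a group were copies (chi-square per degree of freedom between 93.0 and 232).

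Symbols came from the 1130 identifiers paired with one in the skipped exon events given here, and name 456 rows (8.8%). The genes given with values are the 3 members, the listed mRNA-binding genes in the table and the 3 nearest genes of each member. The oocyte and cumulus markers found are given as well, and so are DCP2 and DCP1A. The members, lists and tests were chosen with earlier results of these data known. The alternatives were a pseudocount of 0.1, no filter, a mean FPKM of at least 5, 3 scalings between libraries, each library left out, a block for the replicate number, untrended eBayes and limma's voom on the recovered fragments. Protein and promoter sequences, coordinates and splicing were not analysed here.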

Additional observations from a re-analysis of the deposited data

How the results depend on the processing

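YTHDF3 kept its direction under all 15 alternatives (-2.18 to -0.96) and its call under 14 of them. With the median of ratios it had -0.96 and did not pass, FXR1 (0.27) and PABPC1 (0.089) turned to positive values, 1416 genes were lower in place of 2530, and 4 listed genes were lower in place of 9. HNRNPD turned positive with this scaling (0.288) and with an equal FPKM sum (0.0051), and the cause was not tested. Quantile normalization left 1403 genes lower. Lower genes made up 62.3% of the changed genes as reported, 52.5% with an equal FPKM sum, 47.8% with the median of ratios and 47.5% with quantile normalization. The number of higher genes, 1534 as reported, was 1549 under each of these scalings. Over all alternatives it lay between 1223 (mean FPKM of at least 5) and 1553 (no filter). Leaving out single libraries, the log2 fold change lay between -2.18 and -1.65 for YTHDF3, between -1.07 and -0.48 for FXR1 and between -1.30 and -0.56 for PABPC1. FXR1 (-1.07) and PABPC1 (-1.30) passed only without control 3. The change of YTHDF3 minus PABPC1 lay between -1.62 and -0.65 and that of YTHDF3 minus FXR1 between -1.63 and -0.88. The change of FXR1 minus PABPC1 lay between -0.083 and 0.44 in such fits, and it turned negative without control 1 (-0.083) and without knockdown 2 (-0.072). Whether libraries of the same replicate number share more than the number is not stated: their deviations from the group means correlated across genes by 0.095, 0.14 and 0.163, and those of other pairs by -0.139 to 0.027. With the replicate number as a block, YTHDF3 (adjusted p = 0.00284), PABPC1 (adjusted p = 0.0636) and FXR1 (adjusted p = 0.0764, all limma) kept their side of the threshold, 2542 genes were lower and 1535 higher, and the exact sign-flip test of the 3 pairs gave p = 0.25, the smallest it allows, for YTHDF3 minus FXR1 and YTHDF3 minus PABPC1, and p = 0.75 for FXR1 minus PABPC1. Voom on the recovered fragments gave -1.99 for YTHDF3, -0.73 for FXR1 and -0.91 for PABPC1, with the same calls. The smallest fragment number behind a value of the members was 715, in which PCR copies of a molecule are counted as if independent.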
